A study of Mus musculus with 6 samples.

Results

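Molecular chaperones and folding enzymes were examined as a group on 6 whole-transcript mouse arrays, 3 of which are labelled keratinocytes and 3 labelled MEFs (mouse embryonic fibroblasts). The genes were those whose array probe set is paired with exactly 1 symbol that fits a naming rule. The symbol had to begin with Hspa, Hspb, Hspd, Hspe, Hsph, Hsp90, Dnaj, Pdia, Fkbp, Bag or Cct followed by its member code. Calr, Canx and Hyou1 were added by name, and Hspbp1 and Hspbap1 were left out. This rule, which uses no measured value, found 95 probe sets of the 11288 that carry 1 symbol, and they stand for 78 genes of 10261. A gene with more than 1 probe set was represented by the one with the highest mean signal. The keratinocytes were described as cultured cells from the back skin of newborn mice (P0), and the MEFs as a culture from embryos at E13.5. Neither group received a treatment. The isolation protocol takes what is left of an embryo once the head and inner organs are discarded, so a MEF culture holds every cell type of the body wall and limbs that grows on plastic. The paper's methods give C57BL/6J as the MEF strain, whereas the deposited protocol mentions DR-4, and no strain is stated for the keratinocytes. By the paper's methods, keratinocytes grew in an epidermal keratinocyte medium and MEFs in a medium with fetal bovine serum, at different carbon dioxide levels. Cell type, age and culture conditions change together between the groups and cannot be told apart.

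The cell type markers ran against the labels, and every direction below is therefore given by label. All 7 epithelial markers measured, among them the junction gene Cdh1 and the basal keratins Krt5 and Krt14, were lower on the arrays labelled keratinocytes, where the mean over the list was 2.53 to 2.91 on the log2 scale, against 10.21 to 10.23 on the arrays labelled MEFs. All 6 fibroblast markers, among them the intermediate filament gene Vim, were higher on the arrays labelled keratinocytes, with list means of 11.22 to 11.31, against 3.25 to 3.56 on the arrays labelled MEFs. On the arrays labelled keratinocytes Cdh1 was lower by at least 7.71-fold and Vim higher by at least 48.1-fold. If the labels of the 2 groups were exchanged, every sign below would turn, and the sources used here do not settle this. The 5 muscle markers measured were also all higher on the arrays labelled keratinocytes (list means of 6.88 to 7.17, against 3.69 to 3.94 on the arrays labelled MEFs). Cd68 was at least 7.28-fold lower on the arrays labelled keratinocytes. It was the only 1 measured of 6 listed macrophage and leukocyte markers, so the content of these cells cannot be read from it. Within a group the arrays correlated at 0.985 to 0.989 (labelled keratinocytes) and 0.991 to 0.994 (labelled MEFs), and between the groups at 0.629 to 0.647, across the probe sets with 1 symbol. A probe set was counted as above background on an array when it exceeded a level set by 10 olfactory receptor probe sets, namely the 95th percentile of their signal, and this level was 5.49 to 5.92 where the label is keratinocytes and 6.05 to 6.58 where it is MEFs.

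Chaperones bind unfolded or partly folded proteins and let them fold without clumping. In the cytosol, HSP70 proteins hold short stretches of a client under the control of J proteins, which deliver clients, and of nucleotide exchange factors such as the BAG proteins, and then hand some clients on to HSP90 or to the barrel-shaped chaperonin built from Cct subunits. The endoplasmic reticulum (ER) has its own HSP70, HSP90 and J proteins, and adds calnexin, disulfide isomerases and prolyl isomerases of the FKBP family for secreted proteins such as collagen. Keratinocytes are known for a high content of the small heat shock protein HSP27, and fibroblasts for a large output of collagen.

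Of the 78 chaperone genes, 54 (69.2%) passed an adjusted p of 0.05 between the groups in limma (Benjamini-Hochberg adjustment over all 11288 probe sets), 23 of them higher and 31 lower on the arrays labelled keratinocytes. The background is high, since 74.5% of all genes passed, 32.9% as higher and 41.7% as lower, so these shares are near those of any gene. The counts by family below are to be read beside the same shares of all genes. Large differences were rarer among chaperones than overall. Only 10 genes (12.8%) passed with a measured difference of at least 2-fold, against 28.4% of all genes, and the median size of the difference was 0.39 on the log2 scale among the chaperones and 0.57 among all genes. The signed median was -0.13, beside -0.12 for all genes. In 58 of the 78 genes the values of the 3 arrays of each group did not overlap, against 78.4% of all genes. The signal was above background on all 6 arrays for 45 of the 78 genes and on no array for 10. Among all 10261 genes these counts were 3917 and 2751, so the chaperones were more often above background. The part of signal level in the smaller differences was not tested. With each array centred on its median the split was 28 higher and 24 lower. Among all genes it went from 3371 higher and 4278 lower to 3801 higher and 3733 lower, so the balance between directions moved with the scaling in both.

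**Figure D1:**
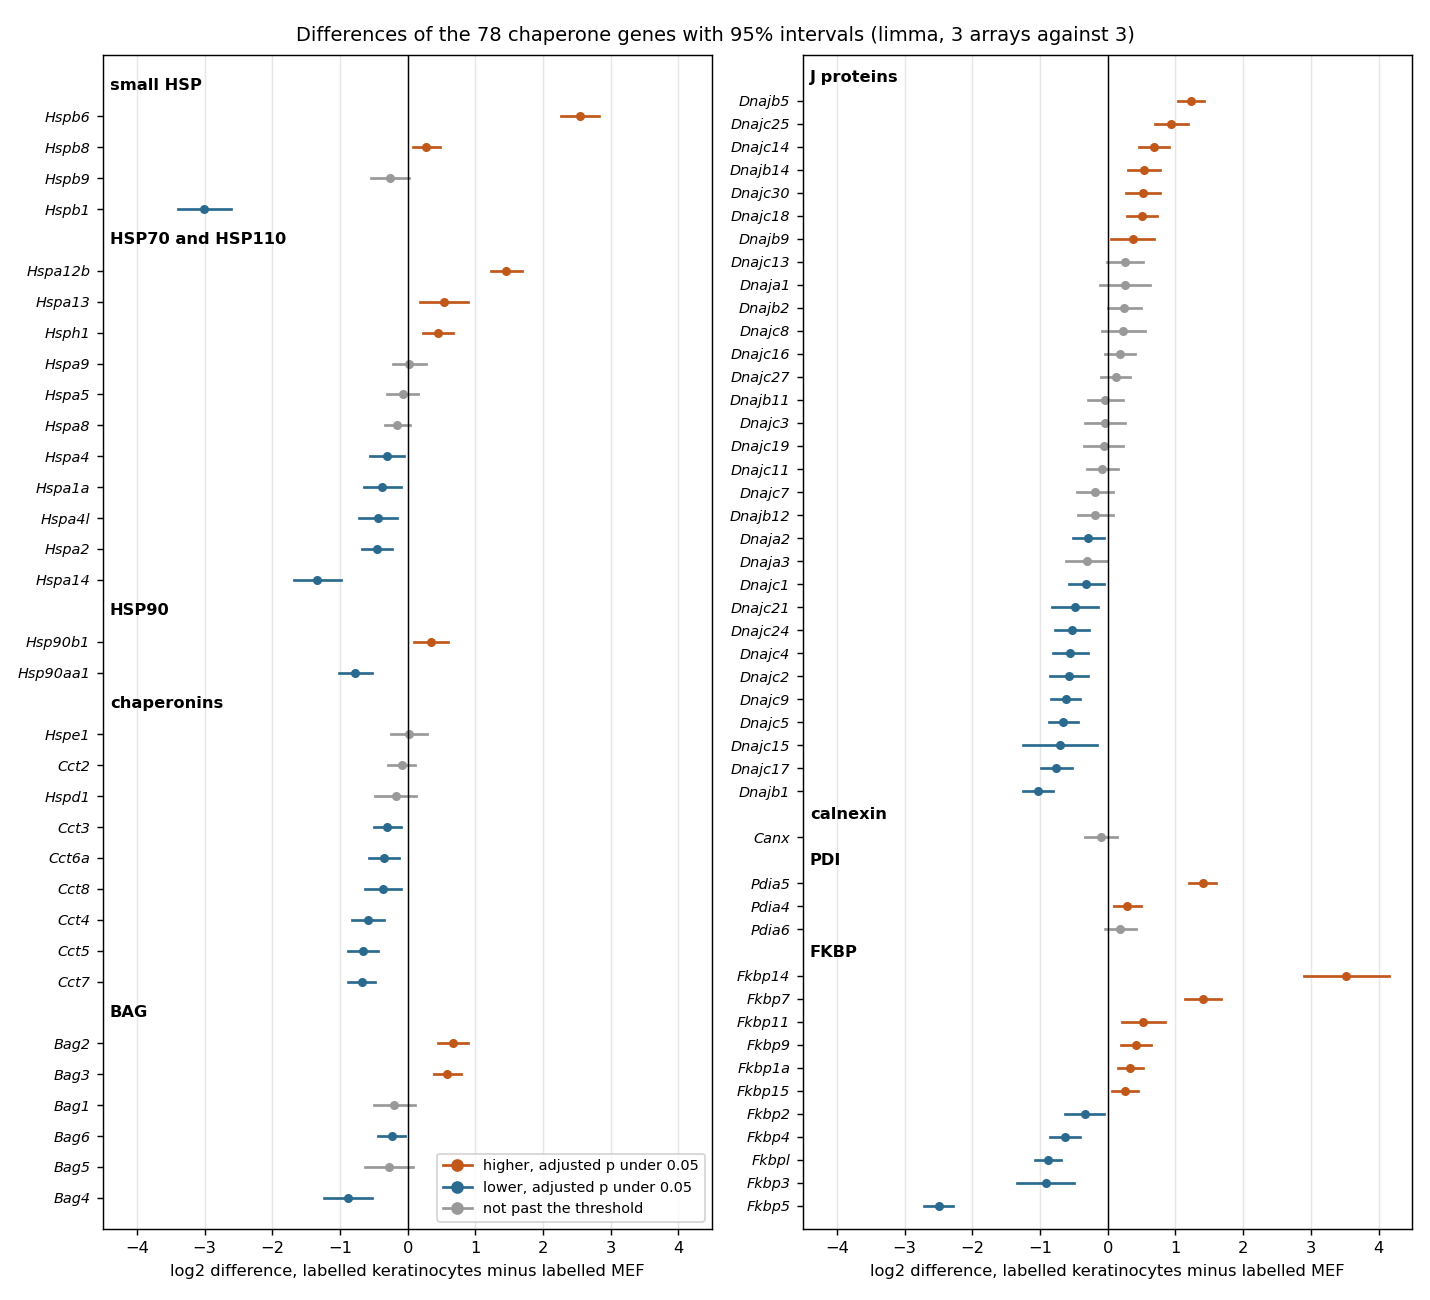
The horizontal axes give the log2 difference, arrays labelled keratinocytes minus arrays labelled MEFs, for each of the 78 chaperone genes by family, with 95% intervals from the limma fit on 3 arrays of each group. Most genes lie within 1 log2 unit of 0. Hspb1 lies at -3.00, and the points of Fkbp14, Hspb6, Hspa12b and Dnajb5 on the right are differences as measured against arrays labelled MEFs on which these probe sets were above background on no array.

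The small heat shock proteins, which bind unfolding clients without using ATP, differed widely in both directions. Of the 4 genes within the naming rule, 2 were higher and 1 lower, with differences of -3.00 to 2.55. Cryab, a small heat shock protein outside the rule, was 1.75-fold lower on the arrays labelled keratinocytes (limma adjusted p = 4.62e-05). Hspb1 encodes HSP27, which protects actin and keratin filaments under stress. It read 6.80, 7.27 and 7.51 on the arrays labelled keratinocytes, against 10.20, 10.13 and 10.26 on the arrays labelled MEFs. The groups lay far apart, and Hspb1 was 8.01-fold lower on the arrays labelled keratinocytes (log2 difference -3.00, SE 0.17, limma adjusted p = 9.64e-07). Both probe sets with this symbol passed as lower, at -3.03 and -3.00. Hspb6, or HSP20, is a small heat shock protein best known from smooth, cardiac and skeletal muscle. It read 8.10, 8.51 and 8.37 on the arrays labelled keratinocytes, against 5.73, 5.72 and 5.87 on those labelled MEFs, where it was above background on no array. By this bound Hspb6 was higher by at least 3.83-fold (limma adjusted p = 3.45e-07). The smooth muscle genes moved the same way, Cnn1 being at least 5.07-fold and Myh11 at least 1.16-fold higher, and their part in the Hspb6 result was not tested. Hspb8, which works with Bag3 in clearing misfolded proteins, differed little, with 7.09, 7.06 and 7.13 on the arrays labelled keratinocytes against 6.78, 6.77 and 6.90 on those labelled MEFs (1.21-fold higher, limma adjusted p = 0.0188), and this call was lost without MEF replicate 1 or 2 (adjusted p of up to 0.0704). Hspb9, a testis gene, was below background on every array.

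The promoters of Hspb1 and Hspb6 are shown because these 2 genes of the same family differed most and in opposite directions, while both windows hold a heat shock element, the binding motif of heat shock factors. The element is made of inverted GAA units, and 2 neighbouring units read GAANNTTC or TTCNNGAA, each its own complement on the other strand. The windows run from 250 bases before to 50 bases after a RefSeq transcription start in GRCm38.p6, on the plus strand at chr5:135887669-135887968 for Hspb1 and chr7:30553051-30553350 for Hspb6 (the one of its 2 annotated starts whose window holds a match), and capitals mark the element.
Hspb1 promoter: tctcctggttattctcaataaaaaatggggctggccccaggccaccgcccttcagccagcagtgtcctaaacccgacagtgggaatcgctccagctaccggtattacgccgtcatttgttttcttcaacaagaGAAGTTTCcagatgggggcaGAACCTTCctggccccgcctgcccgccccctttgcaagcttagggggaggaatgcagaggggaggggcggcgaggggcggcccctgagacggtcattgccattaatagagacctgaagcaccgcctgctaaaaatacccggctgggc
Hspb6 promoter: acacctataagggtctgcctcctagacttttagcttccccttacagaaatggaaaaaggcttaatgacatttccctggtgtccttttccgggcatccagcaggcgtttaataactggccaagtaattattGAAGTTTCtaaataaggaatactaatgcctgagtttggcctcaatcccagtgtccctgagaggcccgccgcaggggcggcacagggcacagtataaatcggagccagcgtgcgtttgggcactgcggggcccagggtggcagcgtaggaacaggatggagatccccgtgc
Hspb1 carries 2 copies, the first 117 bases upstream of the start, and Hspb6 carries 1 copy 120 bases upstream. The same 8 bases, GAAGTTTC, occur in both.

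**Figure D2:**
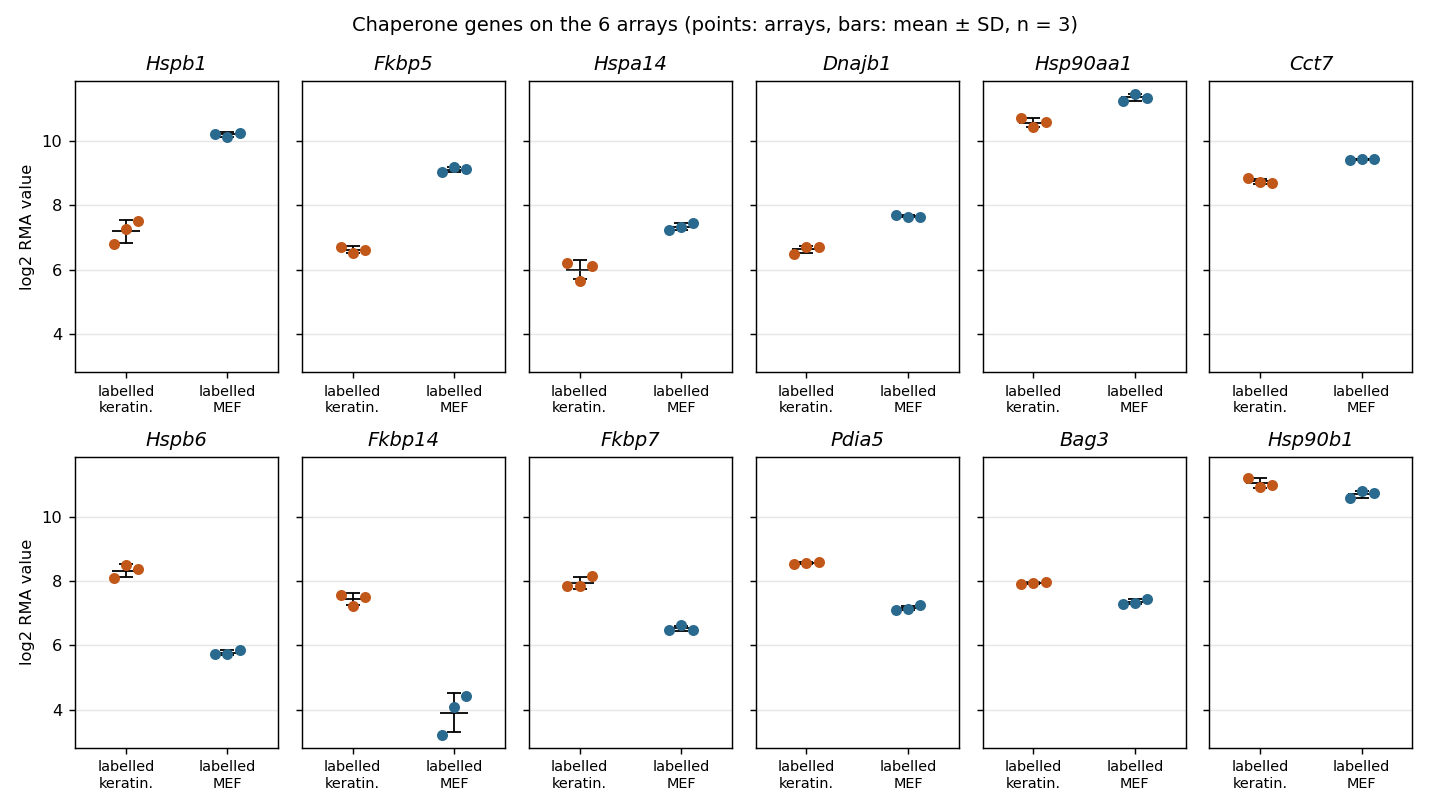
Each panel gives the log2 RMA values of 1 chaperone gene on the 3 arrays labelled keratinocytes (left) and the 3 labelled MEFs (right), with the mean and SD, and levels should be compared within a panel only. In the upper row the arrays labelled keratinocytes lie below the others, in Hspb1 by 3.00 log2 units, and in the lower row they lie above, in Pdia5 by 1.40.

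Among the HSP70 and HSP110 genes, 3 of 11 were higher, 5 lower and 3 did not pass. The housekeeping members had the smallest differences of the family. Hspa8, the constitutive cytosolic HSP70, read 11.46, 11.46 and 11.41 on the arrays labelled keratinocytes against 11.60, 11.60 and 11.58 on the arrays labelled MEFs, and although these values do not overlap, the difference of -0.15 (95% interval -0.34 to 0.04, limma adjusted p = 0.122) did not pass, nor did it in any of its 3 probe sets. Hspa9, the mitochondrial HSP70, read 10.90, 10.64 and 10.66 on the arrays labelled keratinocytes against 10.59, 10.77 and 10.76 on those labelled MEFs, with overlapping groups and an interval of -0.22 to 0.27. The heat-inducible Hspa1a was dim, at 5.40, 5.49 and 5.56 on the arrays labelled keratinocytes against 5.76, 6.08 and 5.72 on those labelled MEFs. It passed as 1.29-fold lower (limma adjusted p = 0.021) while above background on 1 array of each group. It lost the call without keratinocytes replicate 1 or MEF replicate 2 (adjusted p of up to 0.0734), and its probes may also read the near-identical Hspa1b. Among members above background in both groups, the widest gap lay in Hspa14, an HSP70 relative that binds the ribosome with a J protein, which read 6.22, 5.65 and 6.12 on the arrays labelled keratinocytes against 7.22, 7.32 and 7.44 on those labelled MEFs (2.52-fold lower, limma adjusted p = 8.32e-05). Hspa4 and Hspa4l, HSP110 relatives that recharge HSP70 with ATP, were 1.24-fold and 1.35-fold lower, the first losing its call without any 1 of 4 arrays (keratinocytes replicates 2 and 3, MEF replicates 2 and 3, adjusted p of up to 0.11). Hspa2, best known from testis, passed as lower but below background on every array.

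Hsph1, which encodes HSP110 itself, went against most of its family. It read 8.07, 7.95 and 7.96 on the arrays labelled keratinocytes against 7.41, 7.64 and 7.58 on the arrays labelled MEFs (1.37-fold higher, limma adjusted p = 0.0031). Hspa13, an HSP70 relative of the microsomes, followed with 8.31, 7.86 and 8.12 on the arrays labelled keratinocytes against 7.29, 7.70 and 7.67 on those labelled MEFs (1.46-fold higher, limma adjusted p = 0.0124). Hspa12b, a distant HSP70 relative known from endothelium, also passed as higher (log2 difference 1.46), yet it read 4.49, 4.42 and 4.51 on the arrays labelled keratinocytes against 2.87, 3.10 and 3.07 on the arrays labelled MEFs, below background on all 6. The endothelial marker measured beside it, Kdr, moved the other way (log2 difference -1.47) and was likewise below background on every array.

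The 2 HSP90 genes measured within the naming rule moved in opposite directions. Trap1, the mitochondrial HSP90 outside the rule, was 1.7-fold lower on the arrays labelled keratinocytes (limma adjusted p = 1.14e-04). Hsp90aa1 encodes the inducible cytosolic HSP90, which matures kinases and steroid receptors. It read 10.71, 10.42 and 10.58 on the arrays labelled keratinocytes against 11.25, 11.45 and 11.34 on the arrays labelled MEFs, with no overlap (1.71-fold lower, limma adjusted p = 2.44e-04). Its 3 probe sets all passed as lower, at -0.85 to -0.74, and since this gene and several other chaperones have processed copies in the genome, their probe sets may share signal with those. Hsp90b1, or GRP94, is the HSP90 of the ER and folds integrins and Toll-like receptors. It read 11.20, 10.92 and 10.99 on the arrays labelled keratinocytes against 10.57, 10.79 and 10.72 on those labelled MEFs (1.27-fold higher, limma adjusted p = 0.0209). This call was lost without keratinocytes replicate 1 or without MEF replicate 1 (adjusted p of 0.053 to 0.0711). Hsp90ab1 was not analysed here.

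J proteins stimulate the ATPase of HSP70 and choose its clients. Of the 31 measured, 7 were higher, 11 lower and 13 did not pass. Under median centring 11 were higher and 9 lower, and under renewed quantile normalization 10 were higher and 9 lower. Among those above background on all 6 arrays, the largest difference was that of Dnajb1, the heat-inducible J protein also known as HSP40, which read 6.49, 6.71 and 6.69 on the arrays labelled keratinocytes against 7.69, 7.64 and 7.65 on the arrays labelled MEFs (2.04-fold lower, limma adjusted p = 2.08e-05). The C class, whose members share little beyond the J domain, made up 21 of the 31 genes. It supplied 9 of the lower genes and 4 of the higher. Its share of lower genes was near the 41.7% of all genes, and its share of higher genes was below their 32.9%. Dnajc17, a nuclear J protein with an RNA recognition motif, was near background at 5.47, 5.58 and 5.51 on the arrays labelled keratinocytes against 6.39, 6.13 and 6.32 on those labelled MEFs (1.70-fold lower, limma adjusted p = 1.76e-04). Dnajc5, the cysteine string protein of secretory vesicles, was 1.57-fold lower, and Dnajc9, which accompanies histones, was 1.54-fold lower.

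In the other direction, Dnajc14, which escorts membrane receptors out of the ER, read 8.42, 8.28 and 8.24 on the arrays labelled keratinocytes against 7.52, 7.69 and 7.67 on the arrays labelled MEFs (1.61-fold higher, limma adjusted p = 2.76e-04). Dnajc18 was at least 1.06-fold and the mitochondrial Dnajc30 1.43-fold higher. Dnajb5, Dnajc25 and Dnajb14 passed as higher too, but each was above background on 1 array labelled keratinocytes and on none labelled MEFs, so no fold is given. Dnajb5, a relative of Dnajb1, read 5.51, 5.53 and 5.60 on the arrays labelled keratinocytes against 4.34, 4.30 and 4.30 on those labelled MEFs. Dnajc25 read 5.30, 5.50 and 5.56 on the arrays labelled keratinocytes against 4.45, 4.61 and 4.48 on those labelled MEFs. Dnajb14, anchored in the ER membrane, read 5.51, 5.36 and 5.66 on the arrays labelled keratinocytes against 4.98, 4.95 and 5.00 on those labelled MEFs. In all 3 genes the groups did not overlap. The ER-resident Dnajb9, which curbs the stress sensor Ern1, was 1.29-fold higher, a call lost without keratinocytes replicate 3 or any MEF replicate (adjusted p of up to 0.112), whereas Dnajb11 (log2 difference -0.04) and Dnajc3 (-0.05), also of the ER, did not pass. The 2 probe sets of Dnajc3 hold identical values and count as 1 measurement. Of the 10 probe sets of Dnajc13, which acts on endosomes, 1 passed as higher and 9 did not pass.

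The BAG genes, which release clients from HSP70, split evenly, with 2 higher, 2 lower and 2 not passing. Bag3, the stress-inducible partner of Hspb8 in selective autophagy, read 7.90, 7.95 and 7.98 on the arrays labelled keratinocytes against 7.30, 7.33 and 7.44 on the arrays labelled MEFs (1.50-fold higher, limma adjusted p = 3.91e-04). Bag2, an inhibitor of the client-degrading ligase Stub1, read 6.16, 6.04 and 6.25 on the arrays labelled keratinocytes against 5.52, 5.50 and 5.42 on those labelled MEFs, a log2 difference of 0.67 on a probe set above background only on the arrays labelled keratinocytes. Bag4, which silences death receptors, went the other way. It read 5.51, 6.08 and 5.62 on the arrays labelled keratinocytes against 6.52, 6.65 and 6.69 on those labelled MEFs (1.84-fold lower, limma adjusted p = 8.80e-04). Bag6, which guards tail-anchored proteins on their way to the ER, read 8.92, 9.06 and 9.00 on the arrays labelled keratinocytes against 9.19, 9.24 and 9.26 on those labelled MEFs. That difference of -0.24 passed narrowly (limma adjusted p = 0.0361) and was lost without any 1 array other than keratinocytes replicate 2 (adjusted p of 0.0571 to 0.109).

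The Cct subunits build the cytosolic chaperonin that folds actin and tubulin. All 7 measured subunits read lower on average on the arrays labelled keratinocytes, and 6 of them passed, none in the other direction. Among all genes 74.5% passed, 41.7% as lower and 32.9% as higher. Cct7 read 8.85, 8.71 and 8.70 on the arrays labelled keratinocytes against 9.40, 9.44 and 9.44 on the arrays labelled MEFs (1.60-fold lower, limma adjusted p = 1.61e-04). Cct5 read 8.77, 8.80 and 8.94 on the arrays labelled keratinocytes against 9.43, 9.48 and 9.57 on those labelled MEFs (1.58-fold lower, limma adjusted p = 2.94e-04). Cct4 read 9.21, 8.99 and 9.25 on the arrays labelled keratinocytes against 9.78, 9.73 and 9.69 on those labelled MEFs (1.50-fold lower, limma adjusted p = 8.79e-04). In these 3 subunits the groups were clearly apart. Cct8 was closer, at 9.48, 9.14 and 9.30 on the arrays labelled keratinocytes against 9.56, 9.76 and 9.70 on those labelled MEFs (1.29-fold lower, limma adjusted p = 0.0191). Cct6a and Cct3 were 1.27-fold and 1.23-fold lower, and Cct2 did not pass (log2 difference -0.09, 95% interval -0.28 to 0.11). Tcp1, the subunit outside the naming rule, read 10.26, 10.03 and 10.10 on the arrays labelled keratinocytes against 10.52, 10.63 and 10.58 on those labelled MEFs, 1.36-fold lower (limma adjusted p = 0.00289). Median centring and renewed quantile normalization each left 5 of the 6 calls, and the calls were lost without MEF replicate 3 for Cct3 (adjusted p = 0.0524 in limma) and without keratinocytes replicate 2, MEF replicate 2 or MEF replicate 3 for Cct8 (adjusted p of up to 0.069).

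Neither gene of the mitochondrial chaperonin passed, and their difference from the Cct subunits was not tested. Hspd1, or HSP60, read 9.81, 9.37 and 9.49 on the arrays labelled keratinocytes against 9.61, 9.83 and 9.75 on the arrays labelled MEFs, with overlapping groups (log2 difference -0.18, 95% interval -0.48 to 0.13). Its lid Hspe1, or HSP10, read 9.87, 9.51 and 9.61 on the arrays labelled keratinocytes against 9.58, 9.71 and 9.64 on those labelled MEFs (log2 difference 0.02, 95% interval -0.24 to 0.28). Of the 8 chaperone genes known to act in mitochondria, a grouping made after the values were seen, 1 was higher, 1 lower and 6 did not pass. Among all genes 74.5% passed, 32.9% as higher and 41.7% as lower, and the grouping was not tested. The lower gene, Dnajc15, was below background on every array. It lost its call without keratinocytes replicate 1 or MEF replicate 2 (limma adjusted p of up to 0.0819). Hspd1 and Hspe1 lie head to head, and their promoter is shown because 1 element serves as upstream sequence of both. The Hspe1 window, chr1:55087898-55088197 on the plus strand, shares 285 bases with the window of 1 of the 2 annotated Hspd1 starts on the minus strand, and capitals mark a heat shock element of 4 alternating units over 18 bases.
Hspe1 promoter: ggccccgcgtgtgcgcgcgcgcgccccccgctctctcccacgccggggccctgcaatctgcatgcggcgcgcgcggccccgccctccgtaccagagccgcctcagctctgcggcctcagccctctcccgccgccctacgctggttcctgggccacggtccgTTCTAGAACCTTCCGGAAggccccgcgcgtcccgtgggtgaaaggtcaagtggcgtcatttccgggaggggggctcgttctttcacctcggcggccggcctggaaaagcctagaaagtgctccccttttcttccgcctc
The element begins 89 bases upstream of the Hspe1 start and 144 bases upstream of the Hspd1 start.

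In the ER, BiP and calnexin did not pass the test, while several disulfide and prolyl isomerases were higher on the arrays labelled keratinocytes. Hspa5, or BiP, the HSP70 of the ER and the master regulator of its stress sensors, read 10.84, 10.60 and 10.69 on the arrays labelled keratinocytes against 10.71, 10.82 and 10.82 on the arrays labelled MEFs, with overlapping groups (log2 difference -0.08, 95% interval -0.30 to 0.15, limma adjusted p = 0.495). Canx, or calnexin, which holds freshly glycosylated proteins, read 10.95, 10.73 and 10.68 on the arrays labelled keratinocytes against 10.82, 10.97 and 10.88 on those labelled MEFs (log2 difference -0.10, 95% interval -0.34 to 0.14). Both intervals lie within a change of 1.5-fold in either direction. Calr, Hyou1, Pdia3 and Fkbp10 were not analysed here.

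The disulfide isomerases form and reshuffle disulfide bonds. Pdia5 read 8.54, 8.55 and 8.58 on the arrays labelled keratinocytes against 7.11, 7.12 and 7.24 on the arrays labelled MEFs (2.64-fold higher, limma adjusted p = 1.60e-06). Pdia4 differed less, with 10.05, 9.91 and 9.94 on the arrays labelled keratinocytes against 9.69, 9.68 and 9.66 on those labelled MEFs (1.22-fold higher, limma adjusted p = 0.0146, and 0.0523 without MEF replicate 3). Pdia6 read 10.57, 10.37 and 10.37 on the arrays labelled keratinocytes against 10.17, 10.24 and 10.34 on those labelled MEFs, a difference that did not pass (log2 difference 0.19, 95% interval -0.04 to 0.41), although the groups do not overlap.

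All 11 FKBP genes passed, 6 higher and 5 lower, where 74.5% of all genes passed. Without keratinocytes replicate 3, MEF replicate 2 or MEF replicate 3, the counts were 5 higher and 4 lower. FKBPs turn prolyl bonds, and several bind FK506 or rapamycin. Fkbp14, an ER enzyme of collagen folding whose loss causes a form of Ehlers-Danlos syndrome in humans, was well above background in 1 group only. It read 7.57, 7.21 and 7.51 on the arrays labelled keratinocytes against 3.23, 4.07 and 4.42 on the arrays labelled MEFs, where it was above background on no array. This put it at least 2.06-fold above the arrays labelled MEFs (measured log2 difference 3.52, SE 0.27, limma adjusted p = 7.14e-06). Fkbp7, also of the ER, read 7.83, 7.83 and 8.14 on the arrays labelled keratinocytes against 6.47, 6.62 and 6.49 on those labelled MEFs (2.66-fold higher, limma adjusted p = 9.26e-06). On the arrays labelled MEFs, Fkbp7 was near background and above it on 1 array only. Fkbp9, a further ER member, was 1.33-fold higher, Fkbp11 was higher below background, and Fkbp2 was 1.27-fold lower, a call lost without replicate 2 or 3 of either group (adjusted p of up to 0.126). The cytosolic Fkbp1a, the main target of FK506, was 1.26-fold higher. Fkbp15 was 1.19-fold higher, a call lost without keratinocytes replicate 3, MEF replicate 2 or MEF replicate 3 (limma adjusted p of up to 0.0793).

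The 3 FKBPs measured here that bind HSP90 were lower. Fkbp5, or FKBP51, holds the glucocorticoid receptor in a low-affinity state and is a classical glucocorticoid target gene. It read 6.71, 6.52 and 6.62 on the arrays labelled keratinocytes against 9.03, 9.20 and 9.12 on the arrays labelled MEFs, with a wide gap (5.65-fold lower, limma adjusted p = 9.06e-08, the smallest of the chaperone genes). Fkbp4, or FKBP52, its counterpart that moves the receptor to the nucleus, read 7.81, 7.70 and 7.84 on the arrays labelled keratinocytes against 8.31, 8.52 and 8.43 on those labelled MEFs (1.55-fold lower, limma adjusted p = 4.09e-04). Fkbpl, a divergent relative that also binds HSP90, read 5.28, 5.31 and 5.19 on the arrays labelled keratinocytes against 6.17, 6.17 and 6.10 on those labelled MEFs, and was at least 1.36-fold lower. Fkbp3, a nuclear member, was lower as well, at 6.33, 6.06 and 6.81 on the arrays labelled keratinocytes against 7.32, 7.46 and 7.17 on those labelled MEFs (1.89-fold lower, limma adjusted p = 0.00206).

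Grouped by place of work after the values were seen, 16 ER chaperone genes measured here held 9 higher, 2 lower and 5 that did not pass, with a median difference of 0.32. The median of all genes was -0.12, and no test of the grouping was made. Genes of the wider ER folding machinery outside the naming rule were higher in 15 and lower in 4 of 22 cases (median 0.38), beside 32.9% higher and 41.7% lower among all genes. The collagen chaperone Serpinh1, or HSP47, read 8.58, 8.89 and 8.85 on the arrays labelled keratinocytes against 6.66, 6.28 and 6.45 on the arrays labelled MEFs (4.95-fold higher, limma adjusted p = 1.02e-06). P3h1, which hydroxylates collagen prolines, read 8.24, 8.29 and 8.33 on the arrays labelled keratinocytes against 4.86, 4.97 and 4.98 on those labelled MEFs, at least 3.73-fold higher. P4hb, both a disulfide isomerase and a subunit of the collagen prolyl hydroxylase, read 10.98, 11.07 and 11.09 on the arrays labelled keratinocytes against 10.50, 10.45 and 10.43 on those labelled MEFs (1.50-fold higher), and Creld1 was at least 1.13-fold higher. Sdf2l1, a partner of BiP, went the other way (2.22-fold lower, limma adjusted p = 5.14e-05), as did Sil1, a nucleotide exchange factor of BiP (1.50-fold lower), both named after their values were seen. The collagen genes themselves were among the fibroblast markers that were higher on these arrays, Col1a2 at least 66.8-fold. Of the 4 cartilage markers measured, 3 were higher, Col2a1 at least 4.89-fold, and Sox9 was 1.80-fold lower, with list means of 5.93 to 6.11 on the arrays labelled keratinocytes against 4.71 to 4.78 on those labelled MEFs. The part of either marker list in the ER result was not tested.

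Genes of the unfolded protein response and of ER-associated degradation were higher in 15 (71.4%) and lower in 3 (14.3%) of 21 cases, against 32.9% higher and 41.7% lower among all genes, with a median of 0.39. Trib3, a pseudokinase induced by Atf4, read 8.53, 8.73 and 8.68 on the arrays labelled keratinocytes against 6.10, 6.06 and 6.18 on the arrays labelled MEFs (5.78-fold higher, limma adjusted p = 7.73e-08). Only 1 array labelled MEFs was above background for Trib3, so this fold rests on signal near background. Ddit3, or CHOP, a transcription factor of the same branch, read 5.87, 5.97 and 5.98 on the arrays labelled keratinocytes against 3.84, 4.07 and 3.59 on those labelled MEFs, higher by 2.10 as measured, with no fold since the background level on the arrays labelled MEFs exceeds these values. Edem2, which marks misfolded glycoproteins for removal, went the other way at 5.05, 5.37 and 5.46 on the arrays labelled keratinocytes against 7.14, 7.14 and 7.27 on those labelled MEFs, at least 2.80-fold lower.

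The other lists, mostly of cytosolic and mitochondrial proteins, held more lower than higher genes, as did all genes (41.7% lower and 32.9% higher). Of the 22 genes measured in the list of cochaperones and heat shock factors, 14 (63.6%) were lower and none higher, with a median of -0.45. Hsf2 was the only heat shock factor among them. It was 1.58-fold lower, and above background on 2 arrays labelled keratinocytes and 1 labelled MEFs. Chordc1, an HSP90 partner, read 7.45, 6.98 and 7.24 on the arrays labelled keratinocytes against 8.33, 8.56 and 8.36 on the arrays labelled MEFs (2.29-fold lower, limma adjusted p = 7.41e-05). Cdc37, which brings kinases to HSP90, read 8.25, 8.19 and 8.34 on the arrays labelled keratinocytes against 9.29, 9.37 and 9.39 on those labelled MEFs (2.13-fold lower, limma adjusted p = 9.49e-06). Grpel2, a nucleotide exchange factor of mitochondrial HSP70, was 1.98-fold lower. This list shares Fkbpl with the chaperone genes and Ppid with the cyclophilins, and it also holds Tcp1, Trap1 and Cryab. Prefoldin and tubulin folding genes, which work before or after the Cct chaperonin, were higher in 2 and lower in 7 (53.8%) of 13 cases, Pdcl by 2.39-fold, Pfdn1 by 1.90-fold and Pfdn6 by 1.84-fold lower. The list of cyclophilins, a further family of prolyl isomerases, was higher in 1 and lower in 7 (53.8%) of 13 genes, among them the mitochondrial Ppif (3.49-fold lower), Ppil1 (2.49-fold lower) and Ppid (1.65-fold lower). The ER cyclophilin Ppib, counted in the ER folding list and not here, was 1.79-fold higher (limma adjusted p = 8.73e-05). The list of mostly mitochondrial proteases and AAA chaperones was higher in 2 and lower in 6 (54.5%) of 11 genes, with the proteases Clpp 2.20-fold and Afg3l2 1.86-fold and the disaggregase Clpb 1.42-fold lower.

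**Figure D3:**
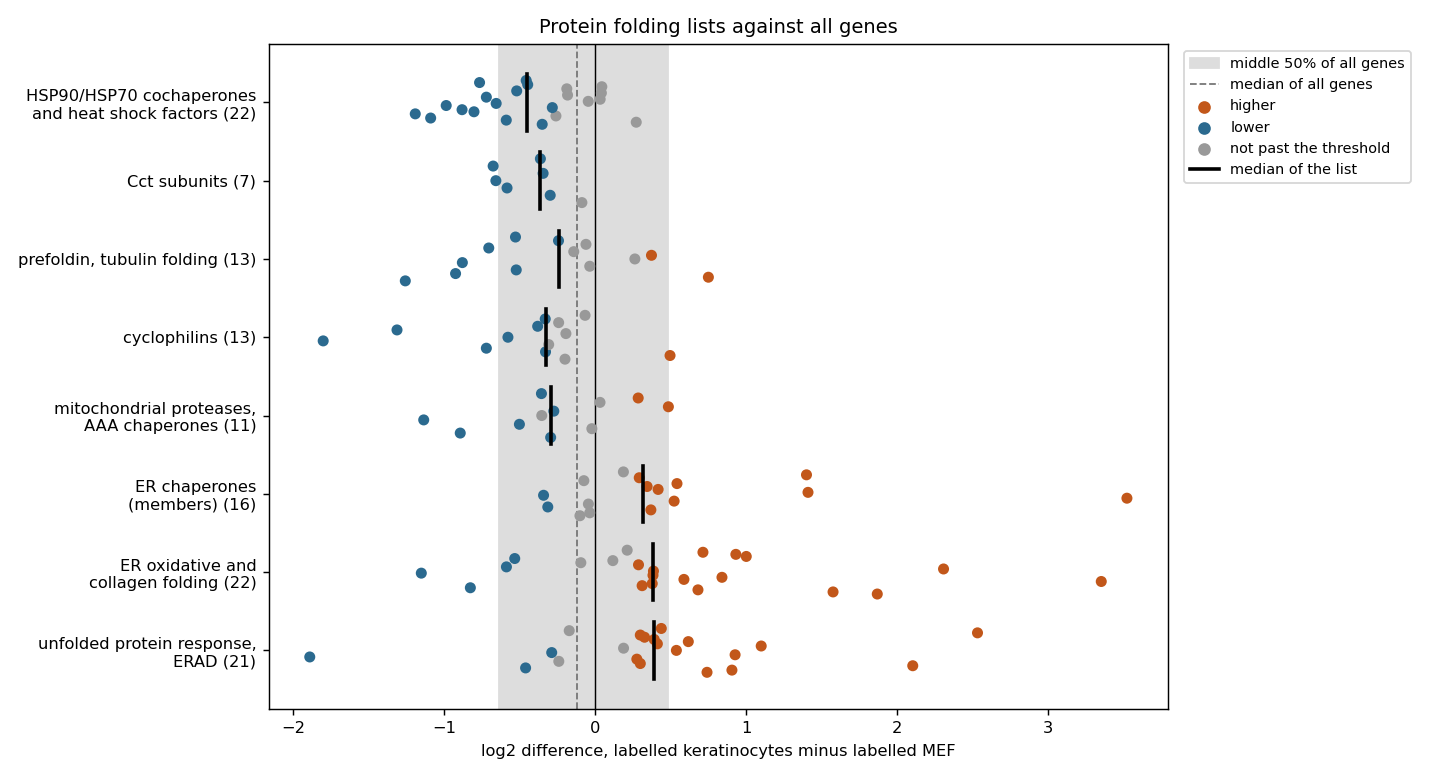
The horizontal axis gives the log2 difference, arrays labelled keratinocytes minus arrays labelled MEFs, for each gene of 8 lists (number measured in brackets), with the list median as a black bar over the middle 50% of all genes (-0.64 to 0.48). The medians of the 3 ER lists lie at 0.32 to 0.39, and those of the 5 other lists at -0.45 to -0.24.

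Promoter windows were found for 67 of the 78 chaperone genes. Some genes have more than 1 window, and a gene was counted when any of its windows held a match. A heat shock element of 2 units stood in 15 of the 67 genes (22.4%), against 17.0% of all genes in the promoter table and 1108 of the 8225 genes on the arrays, and this difference was not tested. It occurred in 5 of the 20 genes that were higher, 5 of the 26 that were lower and 5 of the 21 that did not pass, so matches were found in each class. An element of 3 units was rarer, in 3 genes (Hspd1, Hspe1 and Hsph1) or 4.48%, against 0.662% of all genes and 0.511% of the genes on the arrays. The windows of Hspd1 and Hspe1 hold the same 18 bases, so this stretch is counted under both genes, here and among the 15. The ER stress element, CCAAT and CCACG with 9 bases between them, is bound by Atf6 together with NF-Y. On either strand it stood in 5 genes (7.46%), Hsp90b1, Hspa5, Canx, Dnajc3 and Pdia6, against 0.137% of all genes and 0.146% of the genes on the arrays. Of these 5 genes only Hsp90b1 passed the test between the groups. The windows of Hsp90b1 (chr10:86705395-86705694, minus strand) and Hspa5 (chr2:34771840-34772139, plus strand) are shown as the ER pair of HSP90 and HSP70, with the complete element in capitals.
Hsp90b1 promoter: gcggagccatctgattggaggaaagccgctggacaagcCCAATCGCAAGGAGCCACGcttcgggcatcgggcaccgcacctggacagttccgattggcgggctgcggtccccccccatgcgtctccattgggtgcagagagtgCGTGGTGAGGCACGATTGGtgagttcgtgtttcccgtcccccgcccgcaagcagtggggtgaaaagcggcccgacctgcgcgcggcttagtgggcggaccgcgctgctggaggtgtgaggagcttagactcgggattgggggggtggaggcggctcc
Hspa5 promoter: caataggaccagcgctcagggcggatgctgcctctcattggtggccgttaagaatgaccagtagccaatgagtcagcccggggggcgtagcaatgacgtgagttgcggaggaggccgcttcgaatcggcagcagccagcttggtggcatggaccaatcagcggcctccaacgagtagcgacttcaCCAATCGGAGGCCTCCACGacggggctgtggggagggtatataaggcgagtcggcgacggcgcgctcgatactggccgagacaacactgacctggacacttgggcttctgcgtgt
Hsp90b1 holds 2 copies in opposite orientation, beginning 212 and 107 bases upstream of the start, and Hspa5 holds 1 copy 65 bases upstream. A match describes the letters only, and occupancy by a factor was not measured.

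**Figure D4:**
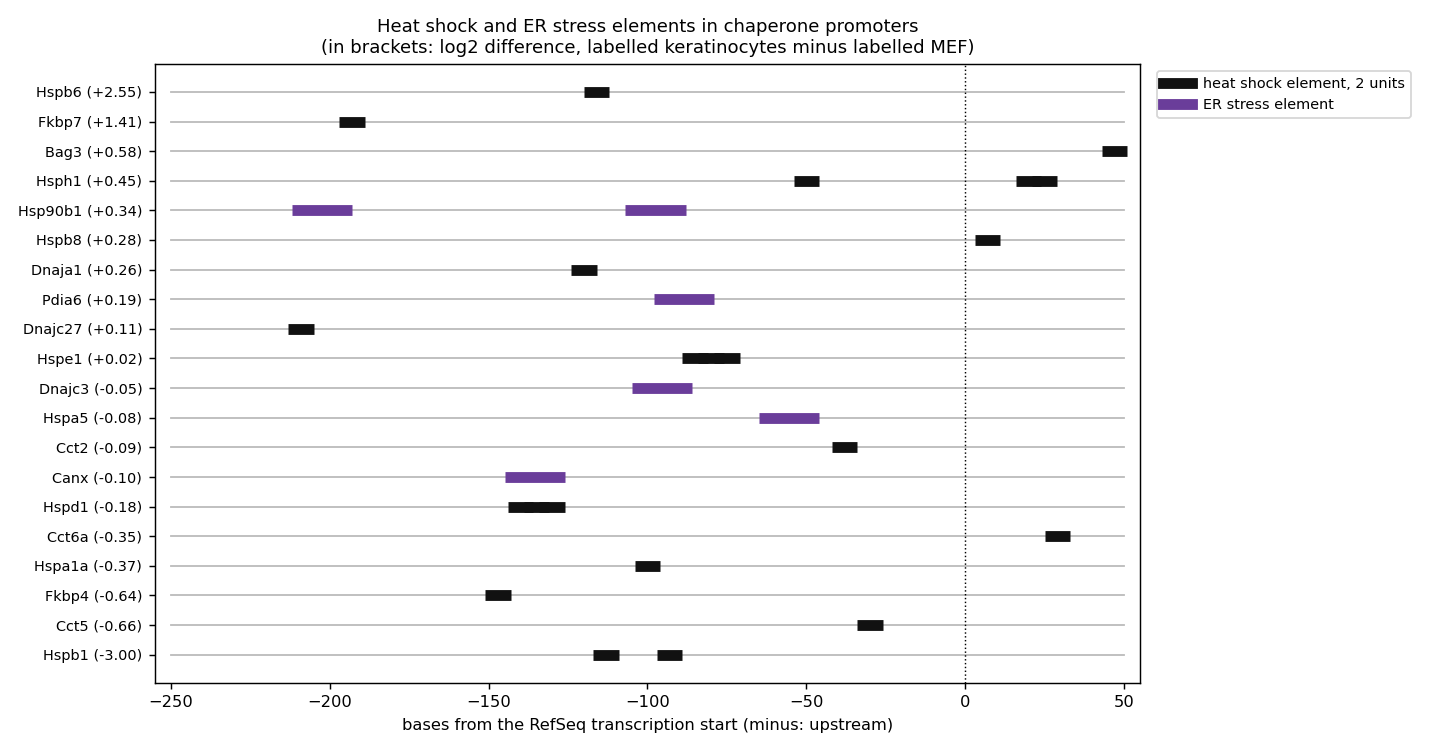
The horizontal axis gives the distance in bases from the RefSeq transcription start in GRCm38.p6 for the chaperone promoters that hold a heat shock element of 2 units (black) or an ER stress element (purple), 1 window per gene, ordered by the log2 difference, arrays labelled keratinocytes minus arrays labelled MEFs, in brackets. Heat shock elements are found from the gene with 2.55 (Hspb6) to the gene with -3.00 (Hspb1), and the 5 genes with an ER stress element lie between 0.34 and -0.10.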

How the data were processed

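Total RNA of 3 samples labelled keratinocytes and 3 labelled MEFs was hybridised to Affymetrix mouse gene arrays. The authors deposited 1 table of log2 values after RMA (background correction, quantile normalization and probe set summary), for which the submitters' processing notes name oligo 1.46.0. The log2 values were used as deposited. Of 15648 probe sets, 11288 had exactly 1 gene symbol in the platform annotation, 645 had several, and 10 rows with a chaperone symbol among several were left out. The groups were compared with limma 3.58.1 in R 4.3.3 without a block, on all 6 arrays, with Benjamini-Hochberg adjustment over the 11288 probe sets and a threshold of 0.05. The code was tested on simulated data. The labels call the replicates biological, their number limits the precision, and no batch is given in the sources used here. Replicate numbers are shared, but deviations of same-numbered arrays correlated at -0.23, -0.21 and -0.03, so they were not taken as pairs. Where no array of a group was above background, a fold is a lower bound: the mean of the brighter group against, per array, the higher of the background level and the signal itself. No fold is given where this is under 1 or both groups are below background. Genes named with values on every array were up to 4 per family with the largest differences among those past the threshold, those that passed against most of their family, and a fixed set of well known chaperones, and up to 3 of each further list. The chaperone genes and lists were chosen with earlier results of these data known. Promoter sequences are from RefSeq (GRCm38.p6), matched by gene identifier. Alternatives concerned scaling, filters on dim probe sets, the variance model, array weights, the methods' t-test, the choice of probe set, the replicate block and leaving out each array.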

Additional observations from a re-analysis of the deposited data

How the results depend on the processing

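The precision is limited by 3 arrays per group, and a dim probe set has no depth measure beyond its distance from 10 receptor probe sets (adding vomeronasal and taste receptors found no further probe set). The counts of chaperone genes were 6 higher and 4 lower when a difference of at least 1 was also required. Leaving out 1 array at a time gave 20 to 23 higher and 22 to 31 lower genes, the lower end without MEF replicate 2. Of the 54 calls, 39 held in all 11 alternatives run for genes taken singly, and no named chaperone gene that passed changed sign. The balance of counts did turn under median centring, for the chaperone genes (28 higher, 24 lower), J proteins (11 higher, 9 lower) and all genes (3801 higher, 3733 lower). Under renewed quantile normalization it turned for J proteins (10 higher, 9 lower) and was even for the chaperone genes (26 higher, 26 lower). Without MEF replicate 1 it turned for small heat shock proteins (1 higher, 2 lower). With the replicate number as a block, 18 genes were higher and 26 lower, BAG genes lower numbered 1, HSP90 genes higher 0 (Hsp90b1 was lost), disulfide isomerases higher 1, small heat shock proteins higher 1, and mitochondrial proteases and AAA chaperones 1 higher and 3 lower. Under median centring, BAG genes lower numbered 1, HSP70 genes lower 3, J proteins higher 11, cochaperones higher 1 and mitochondrial proteases and AAA chaperones lower 3. Under renewed quantile normalization, BAG genes lower numbered 1, small heat shock proteins lower 2 and cochaperones higher 1. Without 1 array, the counts ran from 1 to 2 for BAG genes lower, 3 to 5 for HSP70 genes lower, 0 to 1 for HSP90 genes higher, 7 to 11 for J proteins lower, 1 to 2 for disulfide isomerases higher, 1 to 2 for small heat shock proteins in either direction, 0 to 1 for cochaperones higher, 1 to 3 for prefoldin and tubulin folding genes higher and 4 to 6 for them lower, 2 to 5 for stress response genes lower, and 1 to 2 higher and 3 to 6 lower for mitochondrial proteases and AAA chaperones. The cause of these changes was not tested.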
